A study of Homo sapiens with 6 samples.

Results

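The genes described here are 10 genes of endoplasmic reticulum (ER) stress and protein degradation, XBP1, ERN1, ATF6, HERPUD1, SEL1L, EDEM1, SYVN1, OS9, CRELD2 and SDF2L1, taken by gene symbol from an RNA sequencing table of 58302 genes. All 10 passed the filter on low counts, which left 15572 genes for testing. The cells were MDA-MB-231-DR, a doxorubicin-resistant derivative of MDA-MB-231, a human triple-negative breast cancer line. Both groups came from this resistant line, which the study kept in medium with a low concentration of doxorubicin, and the parental line is not part of the comparison. The 3 control libraries came from MDA-MB-231-DR cells with no treatment named in their labels, and the 3 CYT libraries from MDA-MB-231-DR cells treated with cyperotundone (CYT), a compound of the medicinal plant Cyperus rotundus. The dose and time of CYT for these libraries are not given in the sources used here. It is 1 resistant line, and while the methods speak of independent experiments in general, they do not say whether these replicates came from separate cultures, so the p-values measure the spread between these libraries, which may be technical. The comparison asks which of these genes changed in level under CYT.

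Proteins that enter the secretory pathway fold in the ER, and unfolded protein there is sensed by 3 membrane proteins, IRE1 (encoded by ERN1), ATF6 and PERK. Activated IRE1 splices the XBP1 mRNA in the cytoplasm, ATF6 is cut in the Golgi to release a transcription factor, and PERK slows translation. XBP1 and ATF6 then switch on chaperones and the ER-associated degradation (ERAD) machinery, in which misfolded glycoproteins are picked out, passed through a membrane complex built around SEL1L and the ubiquitin ligase HRD1 (encoded by SYVN1), and destroyed by the proteasome. The response is known to be active in many tumours, breast cancers among them.

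The libraries held 14050849 to 17770102 counts each for control samples, and 13056270 to 14106017 for CYT samples. CYT replicate 2 stood apart from the other CYT libraries, with a correlation of log2 values of 0.905 and 0.904 against 0.97 between CYT replicates 1 and 3. The control libraries correlated with each other at 0.953 to 0.971. The markers known to be expressed in this line, VIM, CD44, EGFR and KRT18, were detected in all 6 libraries. VIM (vimentin) was at 2260 to 2740 CPM (counts scaled to library size) in control and 911 to 1120 in CYT, EGFR was at 131 to 192 CPM in control and 13.6 to 34.3 in CYT, and CD44 and KRT18 did not pass the test described below. Of the markers known to be absent, ESR1 and PGR had at most 4 counts and CDH1 (E-cadherin) had 0 counts in control and 6, 16 and 2 in the CYT libraries. Of 6 markers listed for other cell types, DCN was at 0 in all libraries, PTPRC was at 0 in control and at most 7 counts in CYT, and EPCAM and PECAM1 had at most 35 counts. Their sum, nearly all of it KRT19 and COL1A1, was 226 to 407 CPM in control and 16.9 to 44.9 in CYT, and its part in the results below was not tested. KRT19 is a keratin, as is KRT18, a marker expressed in this line, so this sum cannot show that other cells were present. Because RNA was taken in bulk, fewer cells of a type and less RNA per cell cannot be told apart.

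Of the 10 genes, 3 rose under CYT (ERN1, EDEM1 and OS9), 2 fell (HERPUD1 and SDF2L1) and 5 did not pass the test (XBP1, ATF6, SEL1L, SYVN1 and CRELD2). A gene was called when its adjusted p was under 0.05 in edgeR's quasi-likelihood test over all 15572 genes, and the background is high. Of all genes tested, 15.7% were called higher and 12.9% were called lower. With a log2 fold change past 1 in size as a further condition, which the same 5 genes met, the background was 15.2% higher and 12.2% lower. In the same 5 genes the libraries of the groups did not overlap, as was also seen in 23.4% of all genes in the higher and 22.7% in the lower direction. The median log2 fold change of the 10 genes was 0.22, beside 0.0064 over all genes. Their counts, 3 and 2 of 10, are read against these shares and are not set apart from them by any test. Together the 10 genes took 0.0732% to 0.0758% of all counts in the control libraries and 0.0884%, 0.116% and 0.0951% in CYT replicates 1 to 3.

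**Figure D1:**
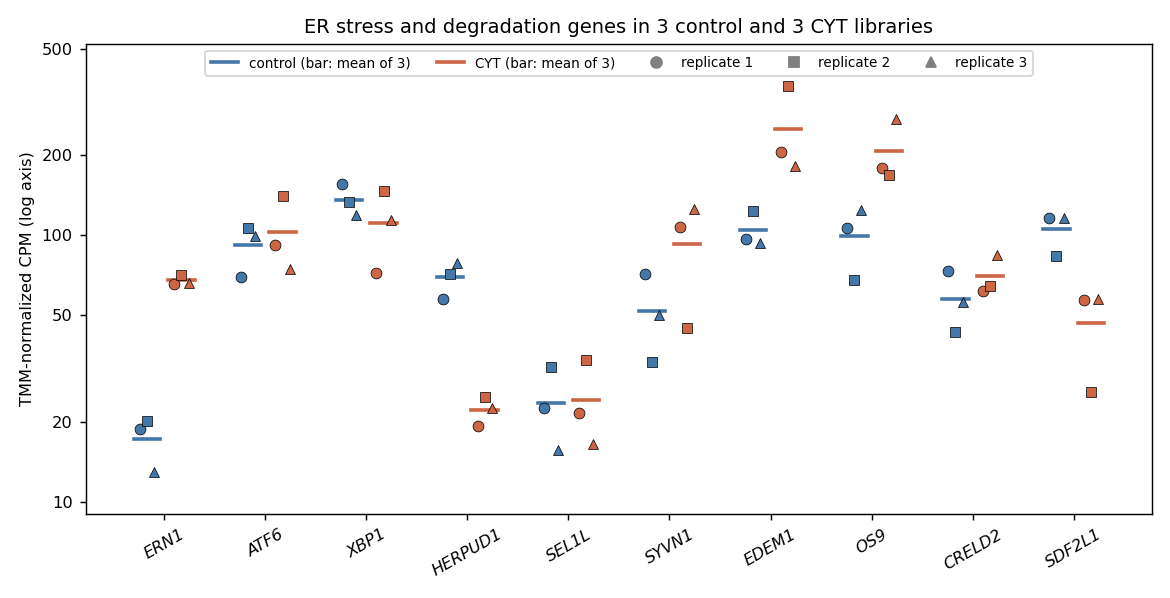
TMM-normalized CPM on a log axis for the 10 genes in each of 3 control (blue) and 3 CYT (orange) libraries, with symbols for the replicate number and bars for group means. ERN1 in CYT sits at 65.6 to 71.0 CPM above control at 12.9 to 20.1, HERPUD1 in CYT sits at 19.3 to 24.7 below control at 57.8 to 78.9, and the libraries of XBP1, ATF6, SEL1L, SYVN1 and CRELD2 overlap between groups.

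Of the sensing arms, ERN1 rose while ATF6 and XBP1 did not pass the test. ERN1 (ENSG00000178607, GRCh38 chr17:64039142-64130819, minus strand) encodes IRE1, the kinase and RNase that splices XBP1. Its raw counts, in the order of the replicate numbers as in all lists of values here, were 303, 378 and 180 for control and 930, 998 and 833 for CYT. On the TMM-normalized CPM scale used for the levels of single genes from here on, this is 18.8, 20.1 and 12.9 in control and 65.6, 71.0 and 66.2 in CYT. Every CYT library lay above every control library, and the CYT libraries were within 1.08-fold of each other. The means were 17.3 ± 3.82 CPM in control and 67.6 ± 2.99 in CYT (SD, n = 3 each), a 3.91-fold rise (log2 fold change 1.97, SE 0.30, edgeR adjusted p = 0.002). ERN1 passed the test in each of 12 alternative fits, with log2 fold changes from 1.45 to 2.13.

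ATF6 (ENSG00000118217, GRCh38 chr1:161766294-161964070, plus strand) encodes the sensor that is itself a transcription factor once cut. Its levels were 69.9, 106 and 99.4 CPM in control and 92.0, 140 and 74.8 in CYT, so the groups overlapped and the highest value was in CYT replicate 2. The log2 fold change was 0.16 (SE 0.33, edgeR adjusted p = 0.755), and its sign turned without CYT replicate 2 (-0.14) or without control replicate 1 (-0.004).

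XBP1 (ENSG00000100219, GRCh38 chr22:28794555-28800597, minus strand) encodes the transcription factor that IRE1 activates by splicing. It had 155, 133 and 119 CPM in control and 72.1, 146 and 114 in CYT. CYT replicates 1 and 3 lay below every control library, while CYT replicate 2 lay inside their range. The mean was 136 ± 18.3 CPM in control and 110 ± 36.9 in CYT (SD, n = 3 each), a log2 fold change of -0.30 that did not pass the test (SE 0.33, edgeR adjusted p = 0.529). A count per gene adds the spliced and unspliced mRNA together, so IRE1 activity cannot be read from it.

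Of the 5 genes that serve the degradation machinery, 1 fell, 2 rose and 2 did not pass the test. HERPUD1 (ENSG00000051108, GRCh38 chr16:56932048-56944863, plus strand) encodes HERP, a membrane protein that joins the HRD1 complex and is known as a strong target of ER stress. It had 932, 1347 and 1097 raw counts in control and 274, 347 and 282 in CYT. The levels were 57.8, 71.7 and 78.9 CPM in control and 19.3, 24.7 and 22.4 in CYT, with no overlap. HERPUD1 was 3.14-fold lower in CYT (69.5 ± 10.7 against 22.1 ± 2.7 CPM, SD, n = 3 each; log2 fold change -1.65, SE 0.29, edgeR adjusted p = 0.00341). It passed the test in each of 12 alternative fits, with log2 fold changes from -1.77 to -1.22.

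SEL1L (ENSG00000071537, GRCh38 chr14:81471549-81533861, minus strand) encodes the adaptor that holds HRD1 stable. With 22.5, 32.1 and 15.6 CPM in control and 21.6, 34.1 and 16.5 in CYT, the ranges of the groups nearly coincided. In each group replicate 2 was highest and replicate 3 lowest. The log2 fold change was 0.041 (SE 0.39, edgeR adjusted p = 0.949), and this sign did not hold across the alternatives, which ran from -0.29 to 0.38.

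SYVN1 (ENSG00000162298, GRCh38 chr11:65121780-65134533, minus strand) encodes HRD1, the ubiquitin ligase of the complex. It was at 71.4, 33.4 and 50.3 CPM in control and 107, 44.8 and 125 in CYT. CYT replicates 1 and 3 lay above all control libraries and CYT replicate 2 lay among them. The means, 51.7 ± 19 CPM in control and 92.2 ± 42.1 in CYT (SD, n = 3 each), did not differ by enough to pass the test (log2 fold change 0.84, SE 0.43, edgeR adjusted p = 0.177). With the replicate number as a block SYVN1 was called higher (log2 fold change 0.77, edgeR adjusted p = 0.0466), as it was without CYT replicate 2 (1.18, edgeR adjusted p = 0.0168). In GENCODE 29, 398 bp of its exons (7.24%) are shared with FAU on the same strand, which had 6958 to 13713 counts per library, and 356 bp lie opposite MRPL49. How reads in shared bases were assigned is not given in the sources used here, so the level of SYVN1 is uncertain to that extent.

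EDEM1 and OS9 act ahead of the membrane complex, on the glycans and recognition of misfolded glycoproteins, and both rose. EDEM1 (ENSG00000134109, GRCh38 chr3:5187646-5219957, plus strand) encodes a lectin-like mannosidase family protein that routes misfolded glycoproteins out of folding. It had 1556, 2313 and 1300 raw counts in control and 2893, 5088 and 2283 in CYT. This is 96.5, 123 and 93.5 CPM in control against 204, 362 and 181 in CYT, with the highest value in CYT replicate 2 and no overlap. EDEM1 was 2.39-fold higher (104 ± 16.3 against 249 ± 98.5 CPM, SD, n = 3 each; log2 fold change 1.26, SE 0.34, edgeR adjusted p = 0.0218). It passed the test in 10 of 12 alternative fits. The call was lost without control replicate 1 (edgeR adjusted p = 0.0774) and without control replicate 3 (edgeR adjusted p = 0.0913), and the log2 fold change was 0.89 without CYT replicate 2. Its exons share 653 bp (9.66%) with AC026202.3 on the opposite strand, which had at most 26 counts in a library.

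OS9 (ENSG00000135506, GRCh38 chr12:57693955-57721557, plus strand) encodes a lectin that binds trimmed glycans and hands the protein to SEL1L. It had 106, 68.1 and 124 CPM in control and 179, 168 and 273 in CYT. All CYT libraries lay above all control libraries, and the lowest value of each group was in replicate 2. OS9 was 2.07-fold higher (99.6 ± 28.8 against 207 ± 57.6 CPM, SD, n = 3 each; log2 fold change 1.05, SE 0.34, edgeR adjusted p = 0.0428), a call close to the threshold. It was called in 6 of 12 alternative fits, and the call was lost with no filter on low counts (edgeR adjusted p = 0.0635) and on leaving out any 1 library but CYT replicate 2. In those fits the edgeR adjusted p ran from 0.0712 without control replicate 3 to 0.157 without CYT replicate 3, with 0.101 and 0.111 without control replicates 1 and 2 and 0.0746 without CYT replicate 1. Its exons share 699 bp (13.5%) with AC025165.2 on the opposite strand, which had at most 12 counts in a library.

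CRELD2 and SDF2L1 are soluble ER proteins that accompany folding, and both are known to be induced by ER stress. CRELD2 (ENSG00000184164, GRCh38 chr22:49918167-49927540, plus strand), a cysteine-rich protein linked to disulfide chemistry, was at 73.3, 43.4 and 55.9 CPM in control and 61.6, 64.4 and 84.4 in CYT. The groups overlapped, since CYT replicates 1 and 2 lay below control replicate 1, and the log2 fold change of 0.28 did not pass the test (SE 0.31, edgeR adjusted p = 0.524). Its exons share 168 bp (3.25%) with ALG12 on the opposite strand, which had 168 to 807 counts per library. SDF2L1 (ENSG00000128228, GRCh38 chr22:21642261-21644298, plus strand), which works with the chaperone BiP and its co-chaperone ERdj3, had 1870, 1564 and 1607 raw counts in control and 810, 361 and 726 in CYT. This is 116, 83.3 and 116 CPM in control and 57.1, 25.7 and 57.7 in CYT. All CYT libraries lay below all control libraries, and in each group the lowest value was in replicate 2. SDF2L1 was 2.24-fold lower (105 ± 18.7 against 46.8 ± 18.3 CPM, SD, n = 3 each; log2 fold change -1.16, SE 0.37, edgeR adjusted p = 0.041). The call was lost with upper-quartile normalization (edgeR adjusted p = 0.0622), and without each library in turn except CYT replicate 2. The edgeR adjusted p was 0.117, 0.0556 and 0.127 without control replicates 1 to 3, 0.0654 without CYT replicate 1 and 0.0657 without CYT replicate 3, against 0.028 without CYT replicate 2.

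**Figure D2:**
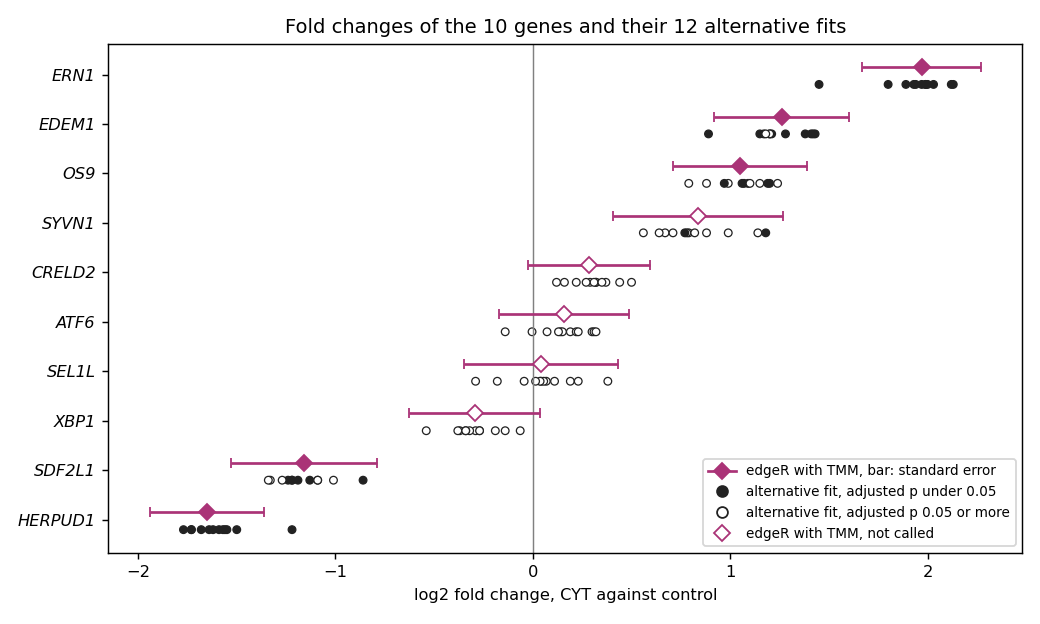
Log2 fold change of CYT against control for the 10 genes (diamonds, bar = standard error, filled where called) and in 12 alternative fits (small circles, filled where the adjusted p was under 0.05). All circles of ERN1 and HERPUD1 are filled, 10 of 12 are for EDEM1, 6 of 12 are for OS9 and for SDF2L1, and 2 of 12 are for SYVN1.

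A test on single levels has little reach with 3 libraries per group. The exact two-sided permutation test on CPM gave p = 0.1, the smallest that 3 against 3 allows, for ERN1, HERPUD1, EDEM1, OS9 and SDF2L1, and p = 0.3 or more for the other 5 genes. The spread within groups was uneven. The highest CYT library was 2.79-fold above the lowest for SYVN1 and 2.25-fold for SDF2L1, but only 1.28-fold for HERPUD1. In CYT replicate 2, XBP1, ERN1, ATF6, HERPUD1, SEL1L and EDEM1 had their highest CYT value, and SYVN1, OS9 and SDF2L1 their lowest.

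Per length, on the FPKM scale deposited by the authors, SDF2L1 was the highest of the 10 genes in control at 70.5 ± 9.35 FPKM, followed by XBP1 (13.6 ± 1.44), ATF6 (11.6 ± 3.05), EDEM1 (11.5 ± 2.49), CRELD2 (7.52 ± 1.49), OS9 (6.7 ± 1.75), HERPUD1 (5.51 ± 1.07), SYVN1 (4.06 ± 1.25), SEL1L (2.19 ± 0.884) and ERN1 (1.4 ± 0.344; SD, n = 3 each). Only SDF2L1 and XBP1, and EDEM1 and CRELD2, were neighbours whose control libraries did not overlap. In CYT the order was SDF2L1 (31.6 ± 11.1 FPKM), EDEM1 (28.1 ± 13), OS9 (14 ± 2.98), ATF6 (13.2 ± 5.27), XBP1 (11.3 ± 4.29), CRELD2 (9.34 ± 1.15), SYVN1 (7.32 ± 3.01), ERN1 (5.53 ± 0.605), SEL1L (2.3 ± 1.02) and HERPUD1 (1.78 ± 0.299; SD, n = 3 each). Here only EDEM1 and OS9, and ERN1 and SEL1L, were neighbours without overlap. HERPUD1 thus stood last in CYT and ERN1 moved above SEL1L and HERPUD1. These orders rest on the deposited FPKM. The length that counts and FPKM together imply is not always the length of the transcripts. It exceeds the whole locus of XBP1, so it cannot be a gene length there. For XBP1 it was 9883 bp, beside 3028 bp of exons in GENCODE 29 and a locus of 6043 bp. For OS9 it was 14635 bp beside 5169 bp of exons, for HERPUD1 12562 bp beside 5155 bp and for SYVN1 12420 bp beside 5496 bp. With CPM divided by the GENCODE 29 exonic length, a scale added after the data were seen, OS9 stood 3rd in control (19.3 CPM per kb) and 2nd in CYT (40.0), XBP1 stood 2nd (44.8) and 4th (36.5), and SDF2L1 stayed first in both groups (95.5 and 42.6). ERN1 was last in control (1.59) on this scale too, while SEL1L was last in CYT (2.52). HERPUD1 stood 5th in control (13.5) and 9th in CYT (4.3) on it.

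Several of the 10 genes have a paralog that does related work, and their ratio within a library does not depend on how libraries are scaled. HERPUD1 and HERPUD2 moved in opposite directions. The log2 ratio of HERPUD1 to HERPUD2 counts was 1.71, 1.83 and 2.01 in control and -1.2, -1.09 and -0.93 in CYT, a difference of -2.92 between means. HERPUD2 itself rose from 17.6, 20.2 and 19.6 CPM to 44.3, 52.5 and 42.8 (log2 fold change 1.28, SE 0.28, edgeR adjusted p = 0.00847). For SDF2L1 and SDF2, the constitutive member of that family, the directions were opposite as well, with less stable calls. Their log2 ratio was 2.2, 1.86 and 2.17 in control and 0.42, -1.01 and 0.1 in CYT, a difference of -2.24. SDF2 rose from 25.3, 22.9 and 25.6 CPM to 42.8, 51.7 and 53.8 (log2 fold change 1.01, SE 0.28, edgeR adjusted p = 0.0235). SDF2 was called in 7 of 12 alternative fits, and the call was lost with no filter (edgeR adjusted p = 0.0639) and without control replicate 1, 2 or 3 (0.0755, 0.0647 and 0.0868) or CYT replicate 3 (0.0782).

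EDEM1 was higher relative to both of its family members in every CYT library than in any control library. Its log2 ratio to EDEM2 was 1.91 ± 0.31 in control and 3.48 ± 0.99 in CYT, and that to EDEM3 was 2.68 ± 0.39 and 4.13 ± 0.25 (SD, n = 3 each), differences of 1.58 and 1.45. Neither EDEM2 (log2 fold change -0.34, edgeR adjusted p = 0.471) nor EDEM3 (-0.29, edgeR adjusted p = 0.614) passed the test. The log2 ratio of OS9 to ERLEC1, the other ER lectin of this kind, was 1.34 ± 0.72 in control and 2.82 ± 0.59 in CYT, a difference of 1.48, and ERLEC1 did not pass the test (log2 fold change -0.43, edgeR adjusted p = 0.33). These 5 of 7 pairs are the ones whose member was itself called, so they are not independent of those calls. Their groups did not overlap. For the CPM of single genes this held in 23.4% upward and 22.7% downward, and no such share was computed for ratios of 2 genes. The exact two-sided permutation test on the ratios gave p = 0.1, the smallest possible here. The ratio of ATF6 to ATF6B overlapped between groups (-0.07 ± 0.61 and 0.57 ± 1.01, exact permutation p = 0.5), as did that of CRELD2 to CRELD1 (1.69 ± 0.07 and 1.7 ± 0.29, exact permutation p = 1.0).

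**Figure D3:**
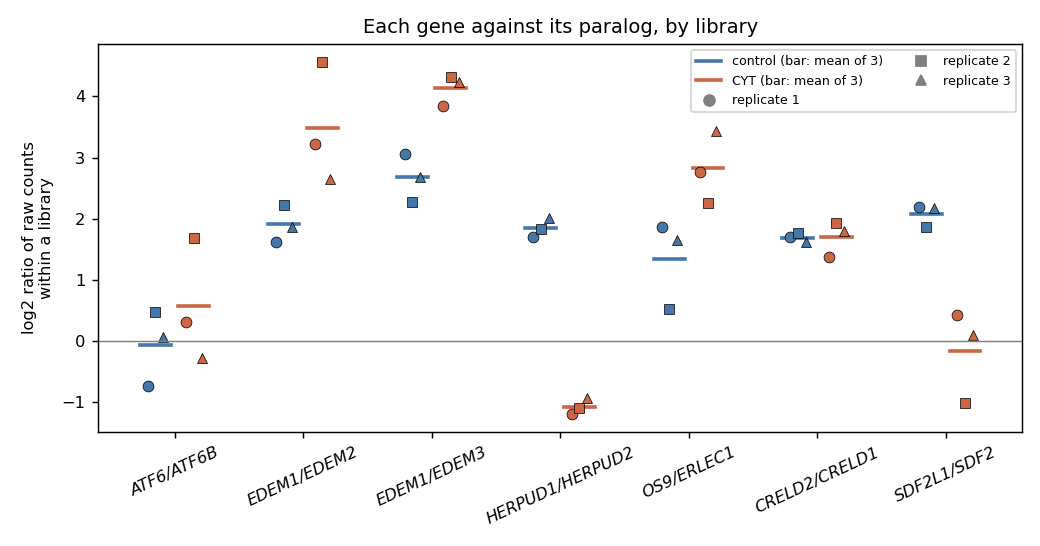
Log2 ratio of raw counts of a gene to its paralog within each library, for 7 pairs in 3 control (blue) and 3 CYT (orange) libraries, with bars for group means. HERPUD1 to HERPUD2 goes from a control mean of 1.85 to -1.07 and SDF2L1 to SDF2 from 2.08 to -0.16, while the CRELD2 to CRELD1 means are 1.69 and 1.7.

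The promoters of 4 of the 10 genes hold one of the sequence elements known to bind the ER stress factors ATF6 and XBP1. They are shown because these elements are the textbook link between the sensors above and their targets, and because HERPUD1 and SDF2L1, the genes that fell, share one type. All 10 genes matched an entry of RefSeq promoters (GRCh38.p14), which run from 250 bases before to 50 after a gene's start. Each was searched on both strands for the ER stress element ERSE (CCAAT and CCACG with 9 bases between), for ERSE-II (ATTGG and CCACG with 1 base between) and for the unfolded protein response element UPRE (TGACGTGG). Of 35116 promoter entries, 0.0769% hold ERSE, 0.0541% ERSE-II and 0.729% UPRE. ERSE was found in XBP1 and CRELD2, ERSE-II in HERPUD1 and SDF2L1, and UPRE in none of the 10, which says only that these letters are not in these windows. In the stretches below, written 5′ to 3′ on the strand of the gene, capitals mark the element. Bases that overlap annotated exons were left out. Positions are counted from the RefSeq start, which can differ from the end of the locus given above, and the RefSeq start of CRELD2 lies inside its locus as printed, so that its stretch does too. The XBP1 stretch is chr22:28800598-28800651 (minus strand, element at -52 to -34 from the start), the CRELD2 stretch chr22:49918524-49918602 (plus strand, -80 to -62), the HERPUD1 stretch chr16:56931995-56932047 (plus strand, -117 to -107) and the SDF2L1 stretch chr22:21642084-21642154 (plus strand, -188 to -178). The element reads forward in XBP1 and HERPUD1 and as its reverse complement in CRELD2 and SDF2L1.
XBP1: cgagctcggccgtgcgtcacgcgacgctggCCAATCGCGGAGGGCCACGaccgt
CRELD2: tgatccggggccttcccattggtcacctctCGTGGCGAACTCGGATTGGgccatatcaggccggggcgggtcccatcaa
HERPUD1: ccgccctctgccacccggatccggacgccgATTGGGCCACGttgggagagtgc
SDF2L1: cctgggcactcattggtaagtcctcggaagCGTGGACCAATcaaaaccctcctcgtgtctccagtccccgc

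Most tested genes with these elements did not pass the test. Of 13 with ERSE-II, 2 were called lower (15.4%, beside 12.9% over all genes) and 11 were not called, with a median log2 fold change of -0.15, and the 2 lower ones are HERPUD1 and SDF2L1 themselves. HYOU1, an ER chaperone with 2 ERSE-II elements, had a log2 fold change of 0.58 and was not called. Of 19 with ERSE, 4 were called higher (21.1%, beside 15.7%) and 1 lower (5.26%, beside 12.9%), with a median of 0.23. Of the 4, 3 are the near-identical copies FRG2, FRG2B and FRG2C, whose reads could be split between them, and the other is ERO1B, an oxidase that drives disulfide formation. Of 127 with UPRE, 17 were called higher (13.4%, beside 15.7%) and 13 lower (10.2%, beside 12.9%), with a median of -0.086. A match is a description of letters and not of binding.

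The other sensors and regulators of the unfolded protein response were called in shares near those of all genes. Of 17 tested, 3 rose and 3 fell (17.6% each way, beside 15.7% higher and 12.9% lower over all genes tested) and 11 did not pass the test, with a median log2 fold change of -0.32. CREB3L1, an ER-bound transcription factor related to ATF6, rose (1.73, SE 0.44, edgeR adjusted p = 0.0171), as did TMBIM6, a membrane protein known to restrain IRE1 (1.36, SE 0.41, edgeR adjusted p = 0.0345), and NFYB, a subunit of the CCAAT-binding factor NF-Y (1.08, SE 0.35, edgeR adjusted p = 0.043). CREB3L2 fell (-1.29, SE 0.29, edgeR adjusted p = 0.0104), as did NFYC, another NF-Y subunit (-1.05, SE 0.30, edgeR adjusted p = 0.0274), and MBTPS1, the Golgi protease that makes the first cut in ATF6 (-1.21, SE 0.30, edgeR adjusted p = 0.0142). The number that rose went to 0 without control replicate 3, CYT replicate 1 or CYT replicate 3, and the number that fell to 1 without control replicate 1, CYT replicate 1 or CYT replicate 3. Over all genes, leaving out 1 library gave 10% to 18.3% called higher and 7.49% to 17.2% called lower, so calls became fewer or more across the table as well. CREB3L2 was called in each of 12 alternative fits, MBTPS1 in 9, CREB3L1 and TMBIM6 in 8, NFYC in 7 and NFYB in 4. Leaving out 1 library raised the edgeR adjusted p to at most 0.0691 for CREB3L1, 0.109 for TMBIM6, 0.168 for NFYB and 0.104 for NFYC, each without control replicate 3, and to 0.0658 for MBTPS1 without CYT replicate 1. With limma on log2(FPKM + 1), CREB3L1 had a log2 fold change of 1.06. EIF2AK3, which encodes PERK, did not pass the test (0.31, edgeR adjusted p = 0.526).

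Of 41 further ERAD genes tested, 2 rose (4.88%, beside 15.7% over all genes), 3 fell (7.32%, beside 12.9%) and 36 did not pass the test, with a median of -0.24. FAM8A1, which joins the HRD1 complex, rose (log2 fold change 1.60, SE 0.38, edgeR adjusted p = 0.0124) together with HERPUD2. FAF1, a cofactor of the extracting ATPase VCP, went from 62.4, 77.2 and 78.9 CPM to 12.7, 14.3 and 11 (-2.52, SE 0.30, edgeR adjusted p = 0.000748). UBE2J1, a ubiquitin-conjugating enzyme of the ER membrane, fell as well (-1.49, SE 0.31, edgeR adjusted p = 0.00732), as did UBXN6, another VCP cofactor (-1.29, SE 0.33, edgeR adjusted p = 0.018). FAM8A1 was not called without control replicate 1 (edgeR adjusted p = 0.058) or control replicate 3 (0.0644), which left 1 gene that rose, and UBXN6 was not called without control replicate 2 (edgeR adjusted p = 0.0643). In all, 5 fell without CYT replicate 2, beside 17.2% of all genes in that fit, and 5 with the replicate block, beside 19.8%.

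Of 39 ER chaperones and folding enzymes tested, 5 rose (12.8%, beside 15.7% over all genes), 0 fell (beside 12.9%) and 34 did not pass edgeR's test, with a median of 0.36. At an unadjusted p under 0.05, 3 of them were lower, and DESeq2 and limma each called 1 lower. ERO1B rose (log2 fold change 2.28, SE 0.38, edgeR adjusted p = 0.00272), with 8.12, 11.7 and 9.49 CPM in control and 36.4, 72.0 and 34.3 in CYT. DNAJB9, the BiP co-chaperone ERdj4 and a known XBP1 target, rose from 10.2, 22.3 and 13.9 CPM to 46.1, 92.8 and 53.2 (2.05, SE 0.41, edgeR adjusted p = 0.00577), as did FKBP14, a prolyl isomerase (2.05, SE 0.40, edgeR adjusted p = 0.00548). SDF2 also rose, as given above, and DNAJB11 passed at the threshold (1.09, edgeR adjusted p = 0.0495), with its highest value in CYT replicate 2 (140 CPM, against 59.5 and 75.8 in the other CYT libraries), and was not tried in the alternative fits one by one. HSPA5, which encodes BiP and is the most used marker of ER stress, was at 482, 516 and 499 CPM in control and 322, 359 and 280 in CYT, with no overlap, and did not pass the test (-0.64, SE 0.26, edgeR adjusted p = 0.0913), though it did without CYT replicate 2 (-0.72, edgeR adjusted p = 0.0457). HSP90B1, the ER form of HSP90, was at 253, 312 and 316 CPM in control and 339, 956 and 465 in CYT and did not pass it either (0.998, SE 0.39, edgeR adjusted p = 0.0831). HSP90B1 was called higher with the replicate block (0.86, edgeR adjusted p = 0.0475), with DESeq2 (adjusted p = 0.0415) and without CYT replicate 1 (edgeR adjusted p = 0.0477), while without CYT replicate 2 its log2 fold change was 0.45 (edgeR adjusted p = 0.205). With the replicate block 10 rose and 2 fell, in a fit that called 20% of all genes higher and 19.8% lower. Without CYT replicate 2 the number that fell was 2, beside 17.2% of all genes, and the number that rose was 3 without control replicate 1, control replicate 3 or CYT replicate 3, beside 10.7%, 10% and 11.7% of all genes.

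For the machinery that brings proteins into the ER, 1 of 23 genes rose (SRP14, log2 fold change 1.16, SE 0.30, edgeR adjusted p = 0.0186), 2 fell (SRP68, -1.38, SE 0.33, edgeR adjusted p = 0.0131, and SSR1, -1.28, SE 0.42, edgeR adjusted p = 0.0484) and 20 did not pass the test, with a median of 0.035. These are 4.35% higher and 8.7% lower, beside 15.7% and 12.9% over all genes. SRP14 and SRP68 are subunits of the signal recognition particle, and SSR1 belongs to the translocon-associated complex. With the replicate block 3 rose and 6 fell, beside 20% and 19.8% of all genes. On leaving out single libraries the number that rose was 0 to 2 (10% to 18.3% of all genes) and the number that fell 0 to 4 (7.49% to 17.2%). SRP14 was lost without control replicate 1 (edgeR adjusted p = 0.0703), control replicate 2 (0.0555) or CYT replicate 3 (0.0749), SRP68 without control replicate 1 (0.0534) or CYT replicate 3 (0.0556), and SSR1 without each library but CYT replicate 2, with upper-quartile normalization (0.0767) and with limma on log2(FPKM + 1) (0.108) or log2(FPKM + 0.1) (0.0961). SSR1 was called in 4 of 12 alternative fits, with edgeR adjusted p up to 0.207 and a log2 fold change of -0.72 without control replicate 2.

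Downstream of PERK, 2 of 7 genes rose (28.6%, beside 15.7% over all genes), 3 fell (42.9%, beside 12.9%) and 2 did not pass the test, with a median of 0.69, in a list of few genes. DDIT3, which encodes the factor CHOP, was at 11.5, 8.63 and 12 CPM in control and 49.1, 50.9 and 45 in CYT (log2 fold change 2.17, SE 0.30, edgeR adjusted p = 0.00129). ATF3 rose from 14.8, 7.83 and 9.13 CPM to 37.5, 135 and 59.4 (2.87, SE 0.51, edgeR adjusted p = 0.00349), and its log2 fold change was 2.2 without CYT replicate 2. ATF4, the transcription factor above both in this arm, whose protein level is known to be set mainly by translation, fell from 387, 223 and 407 CPM to 103, 67.3 and 80.5 (-2.02, SE 0.34, edgeR adjusted p = 0.00269). CHAC1 (-2.36, SE 0.61, edgeR adjusted p = 0.0175) and TRIB3 (-1.32, SE 0.38, edgeR adjusted p = 0.0279), which are known targets of ATF4 and CHOP, fell as well. The genes of the list that did not pass the test, SESN2 (1.09, edgeR adjusted p = 0.0656) and PPP1R15A (0.69, edgeR adjusted p = 0.3), had positive log2 fold changes. These 2 were not tried in the alternative fits one by one. CHAC1 was at 47.2, 11.9 and 15 CPM in control, and without control replicate 1 its log2 fold change was -1.49 and was not called (edgeR adjusted p = 0.072). It was not called without CYT replicate 3 either (-2.4, edgeR adjusted p = 0.0525). TRIB3 was not called without any 1 of the control libraries or CYT replicate 3 (edgeR adjusted p from 0.0555 to 0.0885). With limma on log2(FPKM + 1), ATF3 was at 1.98 and CHAC1 at -1.36. Only 1 of the 7 was called lower without control replicate 1 or CYT replicate 3, beside 7.49% and 8.13% of all genes. The number called higher was 3 with upper-quartile normalization, DESeq2, both limma fits and the replicate block, beside 15.2% to 20% of all genes.

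**Figure D4:**
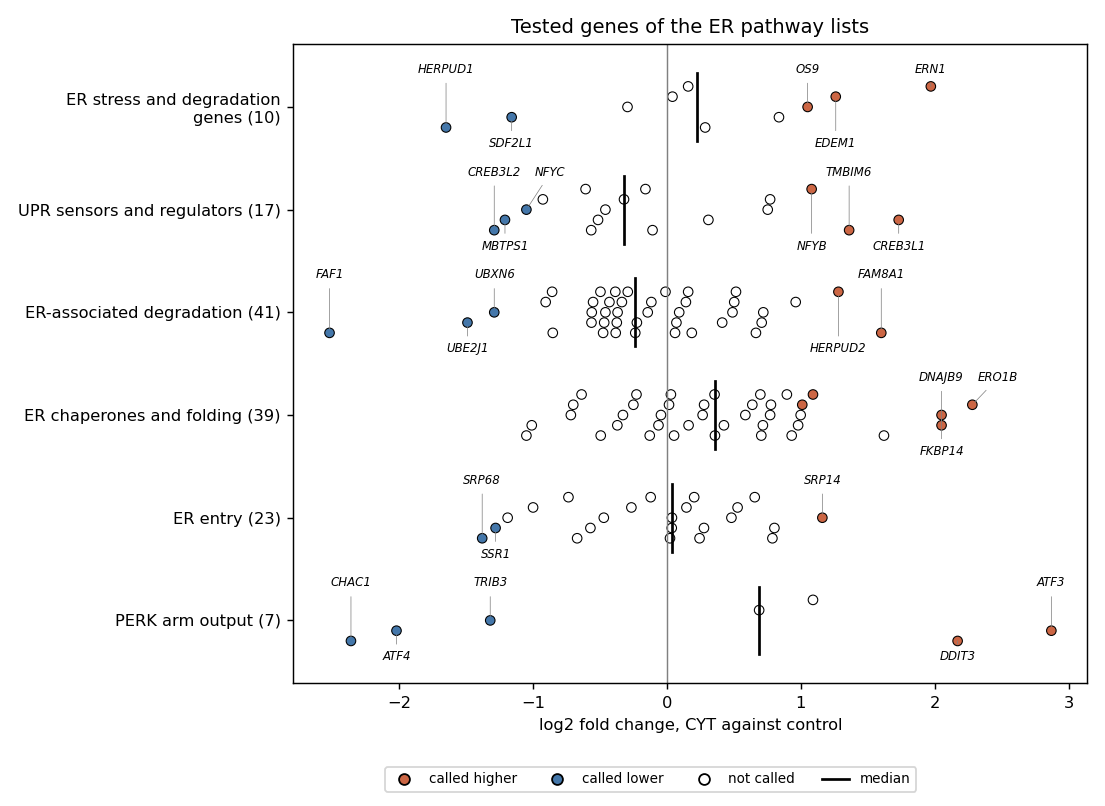
Log2 fold change of CYT against control for each tested gene of 6 lists (orange, called higher; blue, called lower; open, not called), with the median of each list as a bar and up to 3 genes named in each direction. The medians lie between -0.32 (UPR sensors and regulators) and 0.69 (PERK arm output), and every list but the chaperones holds called genes on both sides of 0.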

How the data were processed

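RNA of 3 control and 3 CYT-treated MDA-MB-231-DR samples was sequenced on an Illumina platform. The authors aligned clean reads with Hisat2 (build hg38 per the labels' processing notes, which also list FastQC 0.12.1) and deposited raw counts per gene, which were used for the tests. They also deposited FPKM, made with Stringtie, which was used for levels per length and in alternative fits. The counting program, annotation and use of strand are not given in the sources used here. Antisense partners can therefore not be told apart.

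Groups and replicate numbers were taken from the sample titles. Counts were tested with edgeR 4.0.16 in R 4.3.3 (TMM normalization, filterByExpr with a minimum count of 10, quasi-likelihood test of CYT against control, Benjamini-Hochberg adjustment over 15572 genes), and genes were called at an adjusted p under 0.05. CPM values are TMM-normalized, except those of the summed markers. Single levels and paralog ratios were tested with the exact two-sided permutation test. The biological coefficient of variation was 37.5%, and total counts ran from 13056270 to 17770102, so precision was set by the spread between libraries more than by depth. Replicates of a group differed by more than sampling noise (a chi-square of at least 25.2 per gene for each pair).

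The members and gene lists were chosen with earlier results of these data known. The genes named are the 10 members, their paralogs, HSPA5, HSP90B1, DNAJB9, EIF2AK3, ATF4 and DDIT3, and up to 3 called genes with the largest rise and 3 with the largest fall in each list. HYOU1, DNAJB11, SESN2, PPP1R15A and the FRG2 copies were chosen with their values in view. The lists were UPR sensors and regulators, ERAD, ER chaperones and folding, ER entry and PERK arm output, and DERL3 was left out by the filter. The main fit held no pairing term, and the replicate number entered only as a block in an alternative fit. Deviations of same-numbered libraries from their group means had correlations of 0.188, 0.458 and 0.124. Control 1 with CYT 3 (0.303) and control 3 with CYT 1 (0.201) exceeded 2 of these values, so this check does not establish pairing. Any pairing rests on the replicate numbers and this check alone. The alternatives were upper-quartile normalization, DESeq2 1.42.0, no filter, limma 3.58.1 on log2(FPKM + 1) and log2(FPKM + 0.1), the replicate block and leaving out each library in turn. Scripts were tested on simulated counts. Loci and exon lengths are from GENCODE 29 and promoters from RefSeq.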

Additional observations from a re-analysis of the deposited data

How the results depend on the processing

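Of 120 values for the 10 genes (12 alternative fits each), 99 kept direction and side of the threshold, 14 lost the call, 2 gained it and 5 turned sign. For 31 other named genes these numbers were 317, 50, 4 and 1 of 372. ERN1 and HERPUD1 were called in each of the 12. Upper-quartile normalization moved the median of all genes from 0.0064 to 0.16 on the log2 scale. With no filter the median was 0.41 over a larger set of 32060 genes, which is not a shift of the same genes. Upper-quartile normalization called 18.5% of all genes higher and 10.4% lower, and DESeq2 18.8% and 15.1%, beside 15.7% and 12.9%. With upper-quartile normalization 1 of the 10 genes was called lower, and in the ER entry list 3 were called higher and 1 lower. DESeq2 called 1 chaperone lower, and 3 higher and 4 lower in the ER entry list. With no filter 3 chaperones were called higher, beside 9.2% of all genes in that fit, and SEL1L turned to -0.044. limma on log2(FPKM + 1) and on log2(FPKM + 0.1) each called 1 chaperone and 1 ER entry gene lower.

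With the replicate block, 5 ERAD genes were called lower, 10 chaperones higher and 2 lower, and in the ER entry list 3 higher and 6 lower. Of the 10 genes, the replicate block changed only the call of SYVN1. That fit called 20% of all genes higher and 19.8% lower.

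Leaving out 1 library at a time gave 1 to 4 of the 10 genes higher and 1 to 2 lower. In the lists, the ranges were 0 to 4 higher and 1 to 4 lower for sensors and regulators, 1 to 3 and 2 to 5 for ERAD, 3 to 6 and 0 to 2 for chaperones, 0 to 2 and 0 to 4 for ER entry, and 2 to 3 and 1 to 3 for PERK arm output. Signs turned for ATF6 (-0.14 to 0.32), SEL1L (-0.29 to 0.38), EDEM3 (-0.53 to 0.15) and the CRELD2 to CRELD1 ratio (-0.1 to 0.17), none of which passed a test. In the same fits 10% to 18.3% of all genes were called higher and 7.49% to 17.2% lower, with the highest shares without CYT replicate 2. Each of these fits has fewer libraries, and the cause of these changes was not tested. The lowest raw count of the 10 genes in any library was 180.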
